A study of Mus musculus with 3 samples.

Results

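The cells described here are barcodes that carried RNA of both the vessel wall and the earliest blood cells, in mouse embryos at E10.5, from the aorta-gonad-mesonephros region (AGM). Members were chosen by measured UMI counts (UMIs are unique molecular identifiers, each counting 1 captured transcript). A barcode was a member when it had at least 1000 UMIs, at least 500 genes and at most 10% mitochondrial UMIs. It also needed at least 1 UMI of the endothelial genes Cdh5, Pecam1 and Egfl7 together and at least 2 of the blood genes Runx1, Spi1, Myb and Hlf. Barcodes with 3 or more UMIs of the macrophage genes C1qa, C1qb and C1qc, or of the platelet genes Gp9, Gp1bb and Gp1ba, were left out. The rule found 326 members among 9383 kept barcodes, of 9492 deposited. Of these, 66 carried barcode suffixes 5 or 6, 213 carried suffixes 7 or 8, and 47 carried suffixes 1 to 4. The comparison was between the members of suffixes 5 and 6 and those of suffixes 7 and 8.

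The study sorted 3 populations from pooled AGM regions of embryos with 28 to 32 somite pairs, with 1 sample each: AGM niche (live, Ter119-), Endothelial cells (Ter119-CD31+VCad+CD41-cKit+) and T1-preHSCs (Ter119-CD31+VCad+CD41lowcKit+). T1-preHSCs are type 1 precursors of haematopoietic stem cells, and the labels name no genotype, strain or treatment. Each population was loaded on 2 lanes, whereas the pooled matrix has 8 suffixes, called libraries 1 to 8 below. No label ties a library to a population, so libraries 5-6 and 7-8 are named by suffix only, and every p-value below measures only the spread between the libraries of a pair, which may be technical.

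Haematopoietic stem cells arise from a specialised part of the aortic endothelium, the haemogenic endothelium, in a change of identity called the endothelial-to-haematopoietic transition. The transcription factor Runx1 is required for it. Cells in transit carry endothelial products such as VE-cadherin (Cdh5) together with blood products such as CD41 (Itga2b) and Kit, and lose the endothelial programme as they enter the blood clusters of the aortic wall.

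Members were rare in libraries 5 and 6 and made up most of libraries 7 and 8. They were 2.85% of the 1192 kept barcodes of library 5 (34 cells, 95% exact binomial interval 1.98 to 3.96%) and 2.81% of the 1140 of library 6 (32 cells, 1.93 to 3.94%). In library 7 they were 83.3% of 102 (85 cells, 74.7 to 90.0%) and in library 8 they were 79.0% of 162 (128 cells, 71.9 to 85.0%). Most other barcodes of libraries 5 and 6 were endothelial: 963 and 940 met the same limits with at least 3 endothelial UMIs and no UMI of the 4 blood genes, against 6 and 10 in libraries 7 and 8. These are the endothelial comparator cells below. Libraries 1 to 4 held 11 or 12 members each. Intervals cover counting error only.

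**Figure D1:**
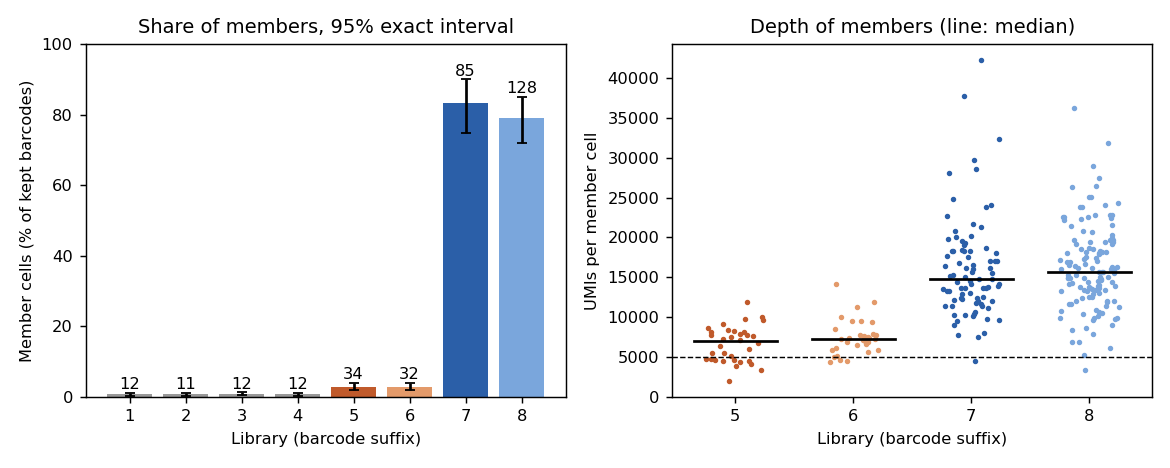
Left, member cells as a share of kept barcodes in each library, with 95% exact binomial intervals and the number of members above each bar. Right, UMIs per member cell in libraries 5 to 8 (points, spread sideways for visibility), with the median as a line and the thinning depth of 5000 UMIs dashed. Members were 83.3% and 79.0% of libraries 7 and 8, and their median depth was above that of members of libraries 5 and 6.

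Depth differed with the pair. The median member had 6984 UMIs in library 5, 7252 in library 6, 14848 in library 7 and 15632 in library 8. Each member with at least 5000 UMIs was therefore thinned at random to 5000 UMIs, which kept 23, 28, 84 and 127 cells and left out 11, 4, 1 and 1. The rule itself was applied at full depth, and applied after thinning it found 41 and 142 cells of the pairs, against 51 and 211 thinned members. Ribosomal protein UMIs made up a median of 29.1, 30.8, 34.3 and 34.5% of a member's UMIs in libraries 5, 6, 7 and 8, and 26.7, 27.2, 31.1 and 31.1% in comparator cells; their part in the results was not tested. Of the members, 1 in library 8 shared its barcode sequence with another library, in library 5, and leaving it out changed the counts of genes below by at most 2.

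The genes of the rule chose the cells, so their values are a description. Runx1 had 168, 190, 158 and 145 CPM (counts scaled to the usual total, here of the thinned sums with normalisation factors) in libraries 5, 6, 7 and 8. Spi1, which encodes the myeloid and lymphoid regulator PU.1, had 277, 393, 238 and 297 CPM. Cdh5 had 285, 288, 99.7 and 114 CPM. Of the rule's genes, Cdh5, Runx1 and Egfl7 (604, 499, 302 and 369 CPM) were higher in both libraries 5 and 6. For Runx1 the log2 difference of libraries 7-8 over 5-6 was small, -0.26 ± 0.23 (SE). The rule set fixed UMI counts at full depth, so it asked for a larger share of UMIs in the shallower members of libraries 5-6. The blood progenitor regulator Myb (67.2, 56.2, 112 and 87.7 CPM) was higher in both libraries 7 and 8. Its log2 difference was 0.67 ± 0.37 (SE) and rests on 8 UMIs in each of libraries 5 and 6. Pecam1 had 67.2, 84.3, 75.4 and 47.1 CPM and Hlf had 75.5, 70.2, 70.5 and 87.7 CPM. Of the sorting antigens outside the rule, Kit had 75.5, 56.2, 82.7 and 71.5 CPM, with a log2 difference of libraries 7-8 over 5-6 of 0.23 ± 0.37 (SE) and an adjusted p of 0.832. Itga2b, the antigen that separates the sorted gates, had 8.70, 21.4, 33.3 and 26.8 CPM without normalisation factors and was too low to be tested. Of the 4 marker genes given for the cell type, Runx1, Spi1 and Cdh5 were thus present in every library, by the rule's own choice, and the 1 gene outside it, Itga2b, was scarce. Just outside the rule, with a blood sum of 1, lay 20, 19, 2 and 9 cells of libraries 5, 6, 7 and 8, and just inside, with a sum of 2, lay 7, 4, 3 and 8. At full depth the 7 and 4 cells just inside in libraries 5 and 6 had 301 and 433 CPM of the endothelial gene Kdr, against 64.5 and 70.6 in members with a sum of 3 or more.

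Thinned counts were summed per library and compared with edgeR's quasi-likelihood test, 2 libraries against 2. A gene was called at a Benjamini-Hochberg adjusted p under 0.05 over all 3814 genes tested, a log2 difference of at least 1, a mean of at least 50 CPM in the higher pair and no overlap between the pairs. By this rule 36 genes (0.944%) were higher in libraries 7-8 and 49 (1.28%) were higher in libraries 5-6, or 85 (2.23%) together. One of the 49 was Cdh5, a gene of the rule, which leaves 48. With DESeq2 the counts were 8 and 21. At the adjusted p alone 178 genes (4.67%) passed, and in 1891 (49.6%) the pairs did not overlap. The median log2 difference over all genes tested was 0.02. Thinning is random, and over 20 further draws the counts ran from 38 to 78 for libraries 7-8 and from 45 to 78 for libraries 5-6. The 36 of the reported draw thus lay below each of the 20 further counts for libraries 7-8. With genes of the rule included, 25 genes were called in every further draw and 385 in at least 1. Of the 36 genes, 28 were called in at least 10 of those draws, and of the 48, 30 were.

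**Figure D2:**
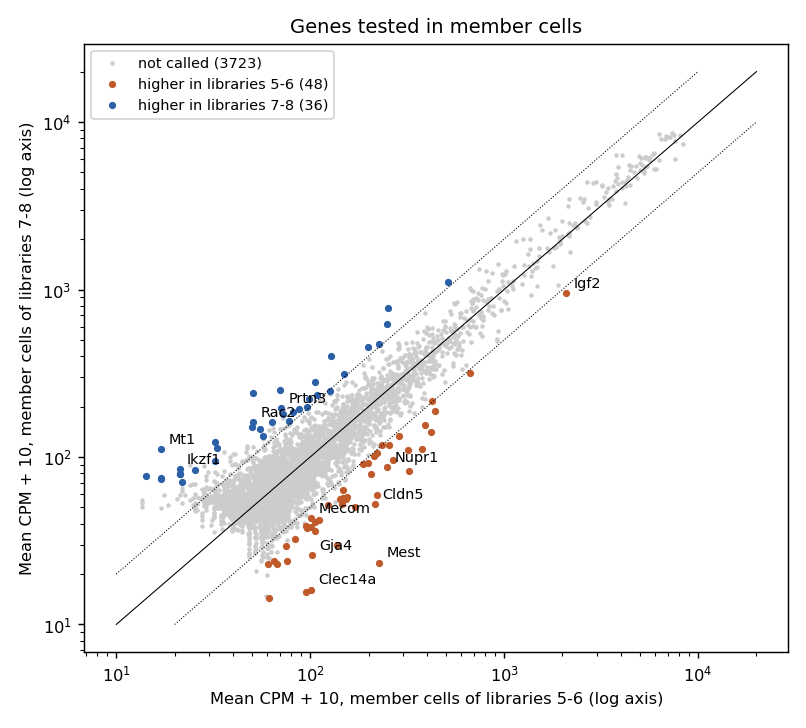
Mean CPM + 10 of each tested gene in members of libraries 5-6 (horizontal, log axis) and 7-8 (vertical, log axis), without the genes of the rule. The 36 genes called higher in libraries 7-8 are blue and the 48 called higher in libraries 5-6 are orange; dotted lines mark a 2-fold difference of CPM + 10.

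Part of the endothelial genes were lower in members of libraries 7-8. Of 24 pan-endothelial genes outside the rule, 16 were tested, 8 were called higher in libraries 5-6 and none higher in 7-8, against 1.28% and 0.944% of all tested genes; the median log2 difference was -1.48, and all 16 were below 0. The 8 were Clec14a, Cldn5, Ramp2, Flt1, Icam2, Emcn, Ecscr and Plxnd1. Cldn5, a tight junction protein of endothelium, had 143, 267, 53.5 and 30.9 CPM in libraries 5, 6, 7 and 8, so both libraries of one pair lay above both of the other (log2 -2.37 ± 0.37, adjusted p = 0.00157). Ramp2, which makes the adrenomedullin receptor, had 411, 407, 175 and 86.1 CPM (-1.73 ± 0.28, adjusted p = 0.00211). Flt1, the VEGF receptor that acts largely as a decoy, had 83.9, 98.3, 29.2 and 27.6 CPM (-1.69 ± 0.37, adjusted p = 0.0172). Cldn5 and Ramp2 were called in each of the 20 draws, Emcn in 5 and Plxnd1 in 1. Leaving out cells that carried markers of other types, counted at full depth, kept 14, 11, 22 and 18 cells of libraries 5, 6, 7 and 8. It ended the calls on Cldn5, Ramp2, Icam2 and Ecscr. Over the alternatives, log2 ran from -2.75 to -0.99 for Cldn5 and from -2.22 to -0.76 for Ramp2. The call on Flt1 was lost without library 6 (log2 -1.54), 7 (-1.69) or 8 (-1.61), and that on Clec14a without library 7 (-4.09) or 8 (-3.52). With the rule applied after thinning, the calls on Flt1, Emcn and Plxnd1 were lost. DESeq2 ended the same calls and that on Clec14a. Kdr, the main VEGF receptor, did not pass, at 101, 84.3, 21.9 and 42.2 CPM and an adjusted p of 0.0658, but was called higher in libraries 5-6 in 19 of the 20 further draws and without thinning (log2 -2.00). Tie1 had a log2 difference of -0.13 (adjusted p = 0.913).

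The difference was also present in the typical cell. The 24 genes summed to a median of 11 UMIs (quartiles 8 and 13) per thinned member in library 5, 11.5 (6 and 14) in library 6, 3 (1 and 6) in library 7 and 3 (2 and 6) in library 8. Comparator cells had medians of 29 and 30 in libraries 5 and 6. Members of libraries 5-6 thus lay between the endothelial cells of their own libraries and the members of libraries 7-8. As libraries 5 and 6 consist mostly of endothelial cells, RNA from those cells, free or in doublets, moves with the same pairs; its part was not tested. In 9 of the 48 genes, comparator cells lay at least 1 log2 unit (of CPM + 10) below members of libraries 5-6. These included Procr, Nupr1 and Mecom, described further below. In 13 genes, Cldn5, Ramp2 and Flt1 among them, comparator cells lay at least 1 unit above those members.

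**Figure D3:**
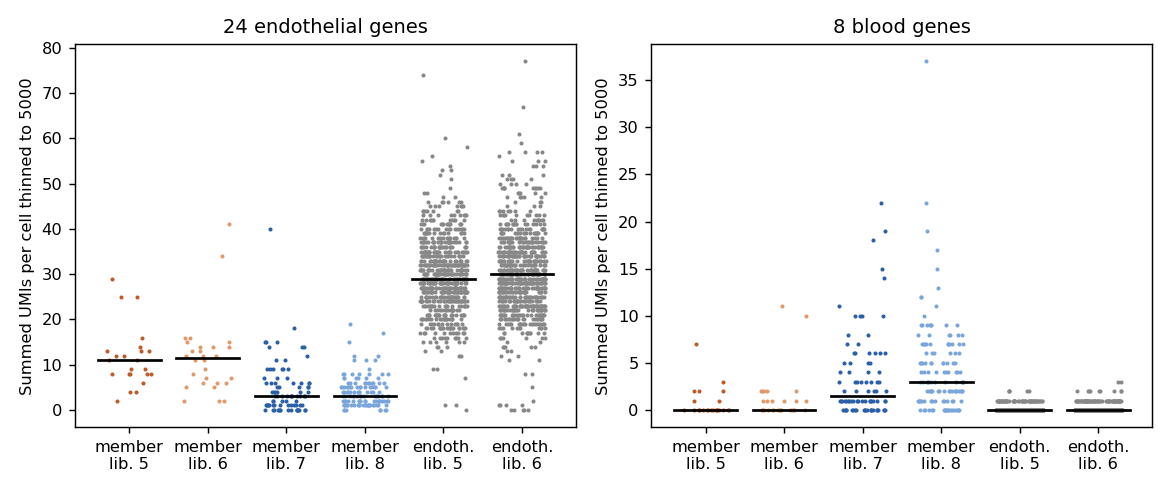
Summed UMIs per cell, thinned to 5000 UMIs, of the 24 pan-endothelial genes (left) and of 8 blood genes chosen after their values were seen (right), in members of libraries 5 to 8 and in endothelial comparator cells of libraries 5 and 6; points are cells and lines are medians. Medians of the endothelial sum were 11, 11.5, 3 and 3 in members and 29 and 30 in comparator cells.

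Of 18 arterial genes 3 were tested and 2 were called higher in libraries 5-6, against 1.28% of all tested genes. Nrp1, a co-receptor for VEGF and semaphorins, had 151, 105, 26.7 and 13.0 CPM (log2 -2.74 ± 0.42, adjusted p = 0.00149). Gja4, the gap junction protein connexin 37, had 58.8, 126, 21.9 and 9.75 CPM (-2.67 ± 0.49, adjusted p = 0.00601). Of the other groups of the vessel wall, 3 of 12 tested matrix and adhesion genes were called higher in libraries 5-6 (Sparc, Vim and Col18a1; median log2 -1.02) and 2 of 4 tested BMP, TGF-beta and Id genes were (Id3 and Id1; median -0.86), against the same 1.28%. The matrix gene Col4a2 (log2 -1.12, adjusted p = 0.0675) did not pass but was called in 16 of the 20 further draws. Id3, an inhibitor of basic helix-loop-helix factors that BMP signals induce, had 311, 421, 112 and 92.6 CPM (-1.87 ± 0.23, adjusted p = 3.57e-04). The call on Id3 held under each alternative tried, and Id1 was called in 8 of 20 draws. Leaving out library 6 ended the calls on Gja4 (log2 -1.95), Vim (-0.72), Col18a1 (-0.99) and Id1 (-0.89). Leaving out library 8 ended those on Gja4 (-2.06), Col18a1 (-0.98) and Id1 (-1.01), and leaving out library 7 that on Gja4 (-3.19). The calls on Sparc, Col18a1 and Id1 were also lost without cells that carried markers of other types. Those on Col18a1 and Id1 were lost with the rule applied after thinning as well. The 1 venous gene tested, Efna1, had a log2 difference of -3.25 and was below the level limit; none of the 3 Notch pathway genes tested was called.

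Some genes higher in libraries 5-6 were lower in the endothelial cells of those libraries than in their members. Against the comparator cells, members of libraries 5-6 were at least 1 log2 unit (of CPM + 10) higher in 9 of the 48 genes, at least 1 unit lower in 13 and within 1 unit in 26. The 48 were chosen partly by their high values in these members, and the shares over all tested genes were not computed. The 9 were Procr, Mecom, Gja4, Hbb-y, Nupr1, Ifitm3, Bst2, 2210016F16Rik and Pdlim1. Procr, the protein C receptor used to purify blood stem cells, had 193, 126, 48.6 and 32.5 CPM in members and 18.7 in comparator cells of libraries 5-6 (log2 -2.00 ± 0.36, adjusted p = 0.00494, called in all 20 draws). Mecom, which encodes the stem cell factor Evi1, had 83.9, 98.3, 34.0 and 32.5 CPM and 17.6 in comparator cells (-1.46 ± 0.36, adjusted p = 0.0355). Nupr1, a stress-response regulator of chromatin named here after its values were seen, had 235, 246, 80.2 and 73.1 CPM and 0.998 in comparator cells (-1.66 ± 0.25, adjusted p = 0.00136, all 20 draws). The call on Mecom was lost under 10 alternatives, among them leaving out library 5 (log2 -1.56), 6 (-1.31), 7 (-1.46) or 8 (-1.39), and Procr was lost at a depth of 8000 UMIs and without cells that carried markers of other types, as was Nupr1 in the latter. Ifitm3 was called in none of the 20 draws, and not without library 5 (-0.64) or 7 (-0.96). Bst2 was called in 4 draws, and not without library 5 (-1.07), 6 (-1.15) or 7 (-0.99).

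The largest difference of the 48 was that of Mest, an imprinted gene. Mest had 159, 274, 17.0 and 9.75 CPM (log2 -4.09 ± 0.41, adjusted p = 1.16e-04). Its call held under each of the 15 alternatives that tested it; it did not pass the filter with a blood sum of at least 4 or without cells that carried markers of other types. At 5000 UMIs per cell, 11 of 51 members of libraries 5-6 had a Mest UMI (21.6%, 95% exact interval 11.3 to 35.3%) and 9 of 211 of libraries 7-8 did (4.27%, 1.97 to 7.94%), against 1591 of 1603 comparator cells; at full depth the shares of members were 25.8 and 10.8%. The level in members of libraries 5-6 thus came from a minority of cells. Igf2, the embryonic growth factor and also imprinted, had 2283, 1875, 1038 and 835 CPM (-1.16 ± 0.12, adjusted p = 1.19e-04, all 20 draws). It was named after its values were seen, and its call was lost under 7 of 17 alternatives, with log2 from -1.29 to -0.49 over the 17 and -0.97 without library 8. Comparator cells of libraries 5 and 6 had 2265 and 2290 CPM of Mest, so members of all 4 libraries were far below the endothelium, and those of libraries 7-8 furthest.

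In the reported draw, the lists of blood genes had as many calls in one direction as in the other. Of the 17 blood transcription factor genes tested, 1 was higher in 7-8 (Ikzf1) and 1 in 5-6 (Mecom), with a median log2 of -0.08. Of 18 blood surface and signalling genes tested, 2 were higher in 7-8 (Plek and Rac2) and 2 in 5-6 (Procr and Esam, the latter also an endothelial junction gene), with a median of 0.26; over all tested genes the shares were 0.944% and 1.28%. Ikzf1, the lymphoid and stem cell regulator Ikaros, had 8.39, 14.05, 60.8 and 87.7 CPM (2.70 ± 0.63, adjusted p = 0.0235). Plek, the protein kinase C substrate pleckstrin of blood cells, had 0, 14.05, 53.5 and 74.7 CPM (3.05 ± 0.75, adjusted p = 0.0333). Rac2, the GTPase of blood cells, had 25.2, 56.2, 134 and 169 CPM (1.86 ± 0.39, adjusted p = 0.0126). In each of the 3 genes both libraries 7 and 8 lay above both libraries 5 and 6. All 3 calls were lost with DESeq2, at 8000 UMIs and without library 5 (log2 2.42 for Ikzf1, 2.21 for Plek and 1.45 for Rac2), and that on Plek also without library 7 (3.24). The calls on Plek and Rac2 were also lost with a blood sum of at least 4.

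The other 15 blood transcription factor genes tested did not pass. Among them Meis1, Gata2, Tal1, Lyl1, Fli1 and Erg had log2 differences of -0.08, -0.19, -0.05, -0.24, 0.45 and 0.11, with adjusted p between 0.630 and 0.964. The surface genes Cd34 (-0.11), Itga4 (0.18) and Adgrg1 (0.48) were among the 14 blood surface and signalling genes that did not pass.

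Of 3 granulocyte-monocyte genes tested, Mpo and Prtn3 were called higher in libraries 7-8, against 0.944% of all tested genes. The other, the Fc receptor gene Fcgr3, had 33.6, 49.2, 43.8 and 42.2 CPM (log2 0.03, adjusted p = 0.985). Mpo, myeloperoxidase of granules, had 8.39, 14.05, 60.8 and 77.99 CPM (log2 2.59 ± 0.61, adjusted p = 0.0254). Prtn3, the granule proteinase 3, had 58.8, 63.2, 143 and 227 CPM (1.64 ± 0.38, adjusted p = 0.0221). At 5000 UMIs per cell, 3 of 51 members of libraries 5-6 had an Mpo UMI (5.88%, 95% exact interval 1.23 to 16.2%) and 45 of 211 members of libraries 7-8 did (21.3%, 16.0 to 27.5%), against 4 of 1603 comparator cells of libraries 5-6; at full depth the shares of members were 6.06 and 39.9%. The Mpo call was lost under 6 of the 12 alternatives that tested it, among them leaving out library 5 (log2 2.31), 6 (3.05) or 7 (2.74), and the Prtn3 call only with DESeq2. Of 3 macrophage genes tested, Fcer1g, a signalling subunit of Fc receptors, was called at 33.6, 56.2, 112 and 162 CPM (1.61 ± 0.40, adjusted p = 0.0364). The Fcer1g call was lost without library 5 (1.32) or 8 (1.30), with DESeq2 and at 8000 UMIs. It was also lost with a blood sum of at least 4 and with an endothelial sum of at least 3. Tyrobp, an adaptor of myeloid receptors, had 0, 28.1, 87.5 and 71.5 CPM (2.33, adjusted p = 0.0551) and was called in 17 of the 20 further draws. Lyz2, lysozyme, had 151, 197, 107 and 125 CPM (-0.58, adjusted p = 0.255). The defining macrophage gene Adgre1 had no UMI in the thinned members, Mrc1 had 1 and Csf1r had 7; the late granule genes Ctsg and Elane had 0 and 2. The macrophage list summed to 191, 307, 312 and 364 CPM, and the granulocyte-monocyte list to 122, 129, 255 and 351 CPM, in libraries 5, 6, 7 and 8, without normalisation factors; the part of such cells in the result was not tested.

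Stretches before the start sites of 4 genes are shown because 2 granule genes were higher and 2 endothelial genes lower in libraries 7-8; the genes were chosen after their values were seen. They are from RefSeq on GRCm38.p6, 5′ to 3′ on the strand of the gene, and stop where a transcript begins in the annotation. Capitals mark the ETS core GGAAG or its reverse complement CTTCC; PU.1 and the endothelial ETS factors share this core. Mpo is chr11:87793534-87793580 (plus strand), Prtn3 is chr10:79879417-79879613 (plus), Gja4 is chr4:127314040-127314289 (minus) and Clec14a is chr12:58269291-58269508 (minus).
Mpo: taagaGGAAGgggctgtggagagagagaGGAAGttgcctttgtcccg
Prtn3: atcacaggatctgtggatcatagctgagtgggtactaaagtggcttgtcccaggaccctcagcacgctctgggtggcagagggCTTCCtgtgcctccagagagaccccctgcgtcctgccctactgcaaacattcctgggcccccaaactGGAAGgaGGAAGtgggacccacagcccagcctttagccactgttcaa
Gja4: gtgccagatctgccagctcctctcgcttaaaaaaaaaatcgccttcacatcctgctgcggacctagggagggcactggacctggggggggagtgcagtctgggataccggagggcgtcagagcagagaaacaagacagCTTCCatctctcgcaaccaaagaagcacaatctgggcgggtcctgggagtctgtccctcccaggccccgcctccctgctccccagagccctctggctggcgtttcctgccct
Clec14a: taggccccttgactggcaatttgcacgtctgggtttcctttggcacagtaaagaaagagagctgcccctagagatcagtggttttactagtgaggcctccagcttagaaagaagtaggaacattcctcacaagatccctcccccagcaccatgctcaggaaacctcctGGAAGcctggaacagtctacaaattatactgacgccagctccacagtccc
The longer PU.1-type motif GAGGAAGT, searched on both strands, contains the ETS core by its letters. It was found 224 bases before the RefSeq start of Mpo and 95 before that of Prtn3. It was in 2 of 37 promoters of genes higher in libraries 7-8, in none of 47 promoters of genes higher in libraries 5-6 and in 2.44% of all 32851 promoters. A promoter here is the 250 bases before a RefSeq start, with any bases not printed above (203 for Mpo, where an annotated transcript begins earlier). The 37 and 47 promoters belong to 29 and 36 genes, so some genes count more than once. The ETS core was in 26 of 37 and 32 of 47, against 64.1% of all. The RUNX-type motif TGTGGT was in 2 of 37 and 5 of 47, against 14% of all, and the GATA-type motif AGATAA in 1 of 37 and none of 47, against 9.99%. Both strands were searched for each. A match is a description of letters, not a bound site.

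Other genes higher in libraries 7-8 have general roles in the cell; Ybx1 and Glrx5 are named after their values were seen. Ybx1, an RNA-binding protein, had 252, 232, 603 and 937 CPM (log2 1.71 ± 0.26, adjusted p = 0.00149), and Glrx5, a mitochondrial iron-sulphur protein, had 50.4, 70.2, 207 and 273 CPM (1.99 ± 0.32, adjusted p = 0.00211). Mt1, the metal-binding metallothionein, had 0, 14.05, 117 and 86.1 CPM (3.63 ± 0.70, adjusted p = 0.00813). The same direction was present in comparator cells, which the blood part of the rule excludes: of the 36 genes, 14 (38.9%) were at least 1 log2 unit (of CPM + 10) higher in the comparator cells of libraries 7-8 than in those of 5-6, against 3.23% of the 3807 tested genes outside the rule. These 14 included Glrx5, Mt1, Bri3, Eif3f, Rap1b and Srm, and also Plek, Rac2 and Prtn3, whose values rest on 4, 3 and 2 UMIs. Libraries 7-8 held only 16 comparator cells, where 1 UMI is 12.5 CPM, so no test was made. In direction, 29 of the 36 (80.6%) were higher in the comparator cells of libraries 7-8, against 42.1% of the 3807 genes. Of the 48 genes higher in libraries 5-6, 29 (60.4%) were lower there. As only 42.1% of the 3807 genes were higher there, with a median difference of -0.11, this share is near that of all genes. It is not read as a result.

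**Figure D4:**
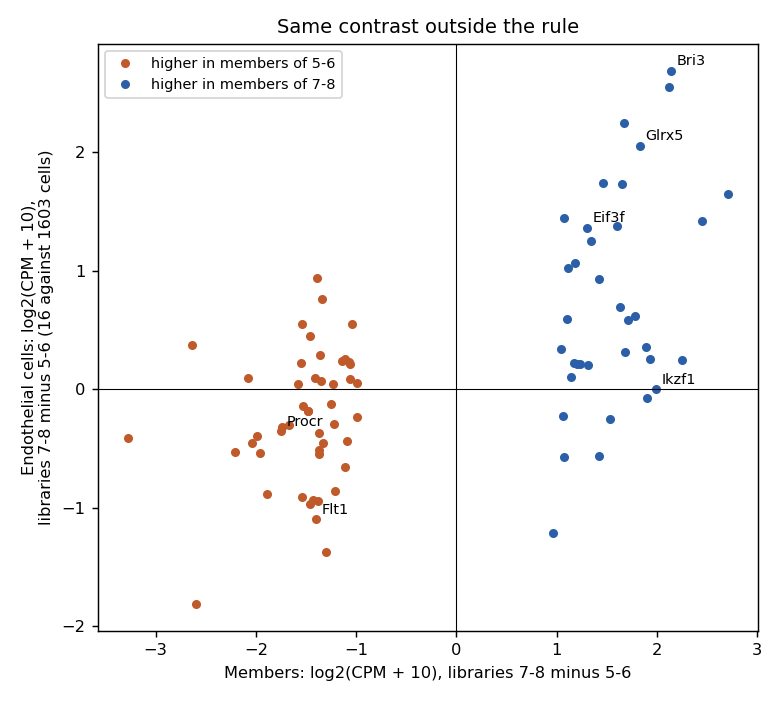
The difference between libraries 7-8 and 5-6 in log2(CPM + 10), in members (horizontal) and in endothelial comparator cells (vertical, 16 against 1603 cells, no test), for the 84 called genes outside the rule. Of the 36 genes higher in members of libraries 7-8, 29 lie above 0 on the vertical axis, led by Bri3 and including Glrx5 and Eif3f.

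Growth and metabolic lists gave no calls in the reported draw. None of the 19 S phase genes (median log2 0.03), 18 G2/M genes (0.32), 11 glycolysis genes (0.20), 20 oxidative phosphorylation genes (0.34) or 3 cholesterol synthesis genes (-0.05) was called in either direction. Other draws did call some: Uqcr11, a subunit of respiratory complex III (log2 0.97, adjusted p = 0.00826), was called higher in libraries 7-8 in 14 of 20 and without thinning, and the mitotic gene Hmmr (1.47, adjusted p = 0.129) in 11 but not without thinning. Ndufa1, of complex I (1.54, adjusted p = 0.120), was called in 4 draws and without thinning. Of 8 immediate early and heat shock genes none was called, with a median of 0.62; Jun had 101, 133, 233 and 224 CPM (0.94 ± 0.24, adjusted p = 0.0409) and missed the limit on size. Jun was called in 12 further draws and Egr1 (3.33, adjusted p = 0.0414, below the limit on level) in 11, both also without thinning. Of 8 interferon and inflammatory genes, Bst2 and Ifitm3 were called higher in libraries 5-6, and Ifitm1, at 243, 204, 365 and 473 CPM, had an adjusted p of 0.0186 in the other direction but missed the limit on size.

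Markers of other cell types gave few calls. Of the erythroid list 1 gene was tested, the embryonic globin Hbb-y, called higher in libraries 5-6 at 143, 49.2, 26.7 and 26.0 CPM and lost without library 5 (log2 -0.89), 7 (-1.81) or 8 (-1.76). The neuronal gene Stmn2 was called at 50.4, 119, 4.86 and 6.50 CPM (log2 -3.82 ± 0.53, adjusted p = 8.54e-04); comparator cells of libraries 5 and 6 had 65.0 and 72.6 CPM, and the call was lost without library 7 (-3.62) or 8 (-3.98). Of the megakaryocyte list none of 3 tested genes was called in the reported draw, although Vwf, von Willebrand factor, which endothelium also makes (log2 -1.19, adjusted p = 0.0668), was called higher in libraries 5-6 in 17 of 20 further draws and without thinning (-1.34). Not called either was the 1 gene tested of each of the Hox, mesenchyme and epithelial lists. No gene of the mast cell, lymphoid or germ cell lists passed the filter. Members with 3 or more UMIs of other-type markers at full depth numbered 12, 17, 63 and 109 in libraries 5, 6, 7 and 8. The deeper members of libraries 7-8 reach 3 UMIs more easily, and the part of depth in these counts was not tested. These markers include Mpo and Prtn3, which were themselves higher in libraries 7-8. Without the members that carried such markers, 14, 11, 22 and 18 cells were left. Then 8 and 5 genes were called higher in libraries 7-8 and 5-6.

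Members of libraries 1 to 4, which took no part in the test, add a further reference of 45 thinned cells. Their values lay nearer to those of libraries 7-8 than of 5-6 in 39 of the 48 genes higher in libraries 5-6 and in 23 of the 36 genes higher in 7-8. These genes were chosen by their values in libraries 5 to 8, and the share over all tested genes was not computed. The counts therefore do not place libraries 1 to 4 with either pair. Mpo had 333 CPM there (library range 127 to 467) and Prtn3 had 1044 (854 to 1417), both above every one of libraries 5 to 8, and Procr had 17.8 (0 to 36.4). The 24 endothelial genes summed to 164, 291, 673 and 917 CPM in libraries 1 to 4, against 2330 and 2343 in libraries 5 and 6 and 957 and 824 in libraries 7 and 8.

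**Figure D5:**
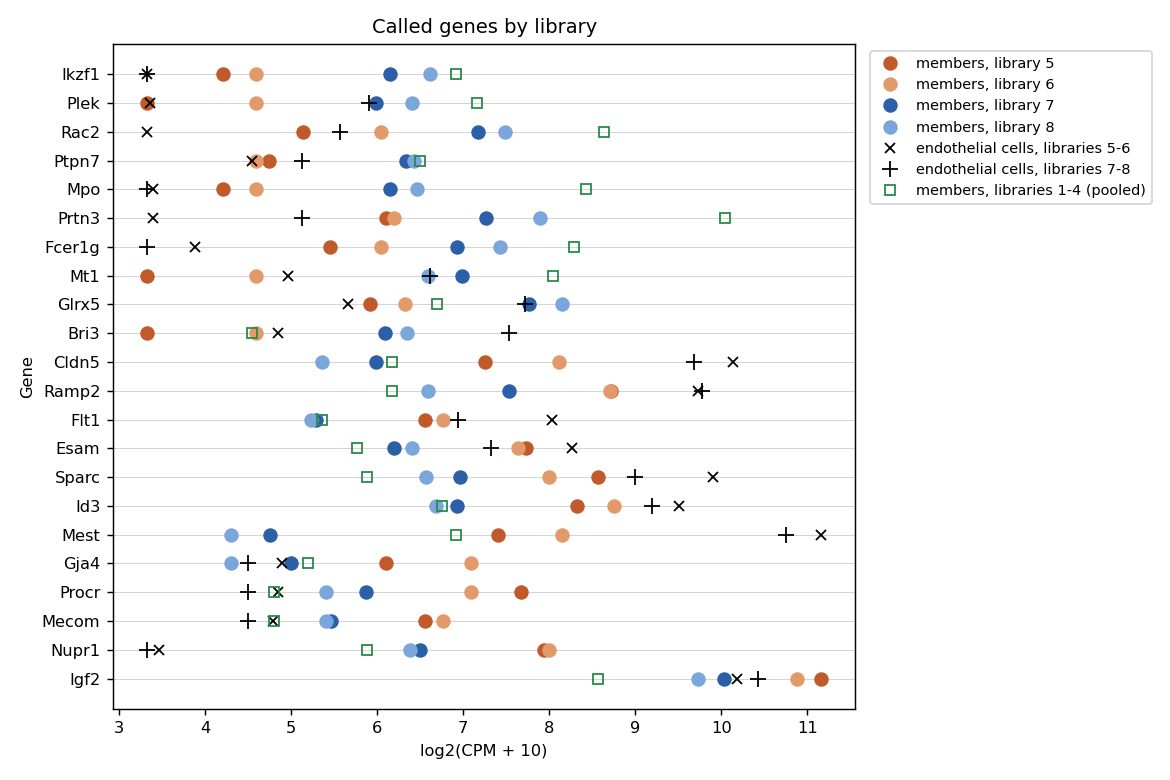
log2(CPM + 10) of 22 called genes in members of each of libraries 5 to 8 (filled points), in pooled members of libraries 1 to 4 (open squares) and in endothelial comparator cells of libraries 5-6 (crosses) and 7-8 (plus signs, 16 cells). Procr, Mecom, Nupr1 and Gja4 are highest in members of libraries 5-6, whereas Cldn5, Sparc and Mest are highest in comparator cells.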

How the data were processed

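Droplet single-cell RNA libraries (10x version 2 chemistry) of 3 sorted populations were deposited as 1 matrix of raw UMI counts per gene and barcode, 27998 genes by 9492 barcodes; the authors did not normalise these counts, per the values in the file. Cell Ranger and mm10 are named in the submitters' processing notes. Gene and barcode names hold no measured values. The member cells and the gene lists were chosen with earlier results of these data known.

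Member cells were thinned to 5000 UMIs with a seed per cell and summed per library (115000, 140000, 420000 and 635000 UMIs in libraries 5, 6, 7 and 8). Genes passing filterByExpr (3814) were tested with edgeR 4.0.16 (TMM, glmQLFit and glmQLFTest, R 4.3.3), adjusted by Benjamini-Hochberg; the SE is the log2 difference divided by the square root of F. DESeq2 1.42.0 was an alternative. CPM carry TMM factors for members and none for comparator cells and libraries 1 to 4, so small differences between those kinds are not read. Doublets were not removed in the main result. As an alternative, members in the top 5% of a doublet score of each library were left out. This removed no member of libraries 5 or 6, and 5 and 8 members of libraries 7 and 8. It therefore says nothing about doublets among members of libraries 5-6. Named genes were the 12 largest called differences each way, up to 4 genes of each list by size, and the sorting antigens; others belong to a described list or were chosen after their values were seen, as were the genes drawn or listed only by name. On simulated counts with 100 genes changed per size (3664 genes), 32 were called at 2-fold and 98 at 4-fold, with 2 false calls. The simulation gave every gene the common dispersion (a coefficient of variation of 4.35%) and changed only genes of at least 50 CPM. Genes that vary more between libraries, or lie lower, were not simulated, so these rates may be better than those in the data. A planned test of comparator cells, and of the difference between the contrasts, was not made because library 7 had 6 such cells, under the minimum of 10. Of the genes called, 65 of 84 matched the RefSeq promoter table.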

Additional observations from a re-analysis of the deposited data

How the results depend on the processing

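Counts of called genes moved with the processing and are given as higher in libraries 7-8 and then in 5-6, against 36 and 49. They were 70 and 84 without thinning, 65 for libraries 7-8 with an endothelial sum of at least 3, 71 for libraries 7-8 with no filter on low counts, 8 and 21 with DESeq2, 8 and 5 without cells that carried other markers (fewer cells and genes), and at most 78 and 78 over 20 further thinning draws, which were chosen after seeing the data. Leaving out each library gave 25 to 51 and 29 to 47, the latter lowest without library 8. With 1 library left in a pair, it is assumed to vary as the other pair does. Member cells of libraries 5-6 numbered 38 with a blood sum of at least 4, against 66, and those of libraries 7-8 numbered 193, against 213. With the rule applied after thinning, which also asks for 5000 UMIs, they numbered 41 and 142, against 51 and 211 thinned members. Except where stated, the cause was not tested. Of 588 alternatives for the 39 named called genes, 437 kept the call, 151 lost it and none changed sign; Id3 kept it in all 17 alternatives, and Mest in the 15 that tested it. Of the 36 and 48 genes, 31 and 40 were also called without thinning. The planned fits of comparator cells were not run, for lack of cells. No paired analysis was possible because the labels give the libraries no replicate numbers. Depth limits the result to genes of about 50 CPM: 1 UMI is 8.70 CPM in library 5 and 7.14 in library 6.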
